A study of Sus scrofa with 2 samples.

Results

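The ribosomal protein genes of pig endometrium, the inner lining of the uterus, are described here gene by gene in 2 droplet single-cell RNA libraries. Members were gene symbols of the form RPL or RPS with a number, with RPLP0, RPLP1, RPLP2 and RPSA, that had at least 100 UMIs over both libraries (a UMI, or unique molecular identifier, marks 1 captured molecule). Of 64 such symbols on the feature table, 63 were members, out of 26881 genes in all. They were 40 genes of the large subunit and 23 of the small subunit, and 4 of them are named as paralogs (RPL3L, RPL7L1, RPL26L1 and RPS27L). RPL10L, with 0 UMIs, was the only symbol left out, which allows at most 0.0661 CPM (UMIs in every 1000000 UMIs) in library 1 and 0.0343 CPM in library 2. RPL3L lay nearest inside the limit, with 126 UMIs, and RPL26L1 came next with 8728. Of 77 standard ribosomal protein symbols, 59 had a row on the table and 18 did not. These 18, RPLP1 and RPS6 among them, were not analysed here, because 16128 of the genes carry an identifier without a symbol.

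The animals were Yorkshire sows aged 3 years and of similar breeding, made pregnant by artificial insemination. The design names 1 sow at day 7 of gestation, called pre-receptive, and 1 sow at day 13, called receptive, and the study set these stages against each other. No label ties a library to a day, so they are numbered library 1 and library 2 here without a stage. The names of the deposited files carry stage words, which were not used for grouping, so no ratio here is given a stage direction. With 1 library per group there was no replicate check and no test, and all intervals are 95% intervals that cover counting error only. Stage, animal, dissociation and sequencing run cannot be told apart.

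A ribosome is built from a small subunit, which reads the messenger RNA, and a large subunit, which joins amino acids. Each ribosomal protein is needed in about equal number per ribosome, but the messenger RNAs are made from separate genes and reach different levels. Most of these messengers begin with a terminal oligopyrimidine tract, a sequence through which growth signals control their translation together. In the endometrium, gland and surface epithelium makes the secretions that feed the early conceptus, and ribosome content is one part of that secretory capacity.

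Library 1 held 10045 barcodes with 45388759 UMIs and library 2 held 15093 barcodes with 87514969 UMIs. Once low barcodes and doublets had been taken out, 8928 and 12669 cells were left, with medians of 3190.5 and 3924 UMIs. The libraries shared 48 barcode sequences, of which 43 and 45 were among the kept cells, and without them the ribosomal protein shares were 14.4% and 5.78%, as with them. Cells were grouped by marker genes into classes, and 9 classes that held 50 cells or more in both libraries were compared. Clusters with epithelial and with stromal markers, the defining cells of endometrium, were present in both libraries. In 25 of 30 clusters over 90% of cells belonged to a single library. Epithelial-like cells were cluster 11 in library 1 and clusters 18, 19, 20 and 29 in library 2. Stromal-like cells were clusters 0 and 1 against 27 and 28, muscle or pericyte-like cells 4 and 5 against 21 and 22, and blood endothelial-like cells 2 and 12 against 24, 25 and 26. For T or NK cell-like cells these were cluster 6 in library 1 and clusters 14 and 16 in library 2. Macrophage, lymphatic endothelial, plasma and dividing cells each formed 1 cluster that both libraries shared. The dividing class was defined by cell cycle genes and can mix cell types. Library 1 had 0 cells in a cluster of ciliated cells, and its ciliated cells lay inside the epithelial-like class: at a finer division 37 of them split off.

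Ribosomal protein genes took 14.4% of the UMIs of library 1 (14.41 to 14.43%) and 5.78% of those of library 2 (5.77 to 5.79%), which was 2.49-fold less. The share was lower in library 2 in 9 of 9 classes. Epithelial-like cells had 22.2% in library 1 (231 cells) and 5.80% in library 2 (2910 cells), a 3.83-fold difference. Stromal-like cells had 15.3% and 4.81%, a 3.18-fold difference, and blood endothelial-like cells 14.2% and 6.45%, a 2.21-fold difference. The other 6 classes were between 1.55-fold and 1.95-fold lower: lymphatic endothelial-like cells had 12.9% and 6.62%, T or NK cell-like cells 17.1% and 10.0%, and dividing cells 11.9% and 6.13%. Muscle or pericyte-like cells had 11.8% and 6.51%, macrophage-like cells 11.6% and 6.85%, and plasma cell-like cells 6.42% and 4.14%. In plasma cell-like cells, which are filled with antibody messengers, the 10 leading other genes of each library took 63.1% and 59.7% of UMIs.

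The order of the classes was not the same in the 2 libraries. Epithelial-like cells led library 1, above T or NK cell-like and stromal-like cells, whereas in library 2 they stood near the bottom, below all endothelial and immune classes other than plasma cells. The dividing, muscle and macrophage classes of library 1, and the macrophage, lymphatic, muscle and blood endothelial classes of library 2, followed each other closely and did not differ beyond the spread of single cells. B cell-like cells, compared in library 2 only because library 1 held 6, had the highest share there, at 11.8% (124 cells). Ciliated-like cells of library 2, at 4.09% (568 cells), were close to its plasma cells.

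**Figure D1:**
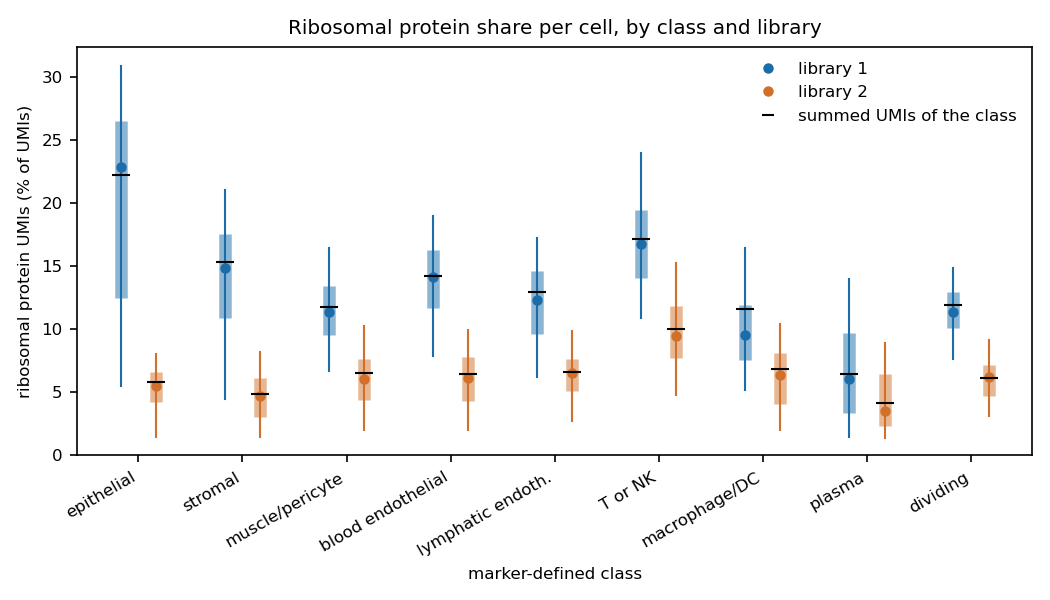
Ribosomal protein UMIs as a percent of all UMIs per cell, by marker-defined class; points are medians over cells, thick bars the middle 50% of cells, thin lines the 5th to 95th percentile, and black ticks the summed UMIs of the class. The thick bars of the 2 libraries overlap in macrophage-like and plasma cell-like cells and in no other class, and epithelial-like cells have the highest median of library 1 at 22.9%.

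Single cells showed the same direction. The median epithelial-like cell had 22.9% in library 1 and 5.52% in library 2, and 100% of the library 2 cells lay below the library 1 median. In plasma cell-like cells the medians were 6.03% and 3.51%, and 73.7% of the library 2 cells lay below the library 1 median. Within library 1 the share differed with depth, though not in 1 direction. Epithelial-like cells with 500 to 1000 UMIs had a median of 7.23% (30 cells), those with 2000 to 4000 had 28.3% (24 cells), those with 4000 to 8000 had 26.6% (52 cells) and those with over 8000 had 22.9% (107 cells). Stromal-like cells with 500 to 1000 UMIs had 5.46% (160 cells) in library 1 and 4.89% (32 cells) in library 2. Those with 1000 to 2000 UMIs had 5.91% (225 cells) and 2.30% (80 cells). Those with 4000 to 8000 UMIs had 16.3% (1124 cells) and 5% (1273 cells), so only the shallowest stromal-like cells were close between libraries. After every cell was thinned to 1000 UMIs, with 528 and 892 shallower cells left out, the shares of epithelial-like cells were 21.7% and 5.37%.

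Other measures differed between the libraries as well. Genes with very long introns, such as AUTS2, LRMDA and SOX5, took 0.0113 to 0.0719% of UMIs over the classes of library 1 and 0.109 to 1.09% over those of library 2, and all 9 classes were higher in library 2. Their median log2 ratio of library 2 over library 1 was between 2.36 and 3.51. Immediate early and stress genes, which respond to handling and dissociation, took 0.625% and 2.11% of UMIs in epithelial-like cells but 1.78% and 1.33% in T or NK cell-like cells. The part of these differences in the ribosomal protein share was not tested.

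Gene by gene, levels were compared as CPM within the class, and the log2 ratio is library 2 over library 1. Each UMI is a 3′ tag of 1 molecule, so levels of different genes were set side by side without scaling to length. Reads of processed pseudogenes and close paralogs, of which ribosomal protein genes have many, could be split by the counting, which makes single genes uncertain. In epithelial-like cells 59 of 63 members were at least 2-fold lower in library 2, against 26.9% of all genes with at least 10 UMIs in the class. In stromal-like cells it was 56 of 63 members, against 19.5% of all genes. Blood endothelial-like cells had 36 of 62 (17% of all genes), lymphatic endothelial-like cells 33 of 62 (13.3%) and dividing cells 33 of 62 (12.1%). Muscle or pericyte-like cells had 30 of 63 (14.9%), T or NK cell-like cells 30 of 62 (11.3%), macrophage-like cells 30 of 62 (15.5%) and plasma cell-like cells 27 of 62 (11.3%).

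No member was at least 2-fold higher in library 2 in any class, while between 19.3% of all genes, in macrophage-like cells, and 27.8%, in stromal-like cells, were. In the other classes that percentage was 21.5% in epithelial-like, 23.7% in muscle or pericyte-like, 23.8% in blood endothelial-like, 21.3% in lymphatic endothelial-like, 23.2% in T or NK cell-like, 27.6% in plasma cell-like and 21.5% in dividing cells. The median log2 ratio of the members was -2.06 in epithelial-like cells, beside -0.21 for all genes, and -1.76 in stromal-like cells, beside 0.02. It was -1.24 in blood endothelial-like, -1.09 in lymphatic endothelial-like, -1.06 in dividing, -0.97 in muscle or pericyte-like, -0.93 in macrophage-like, -0.92 in T or NK cell-like and -0.83 in plasma cell-like cells. All-gene medians in these 7 classes lay between -0.12 and 0.27. Small subunit genes had the lower median in every class, for example -2.17 against -1.82 for the large subunit in epithelial-like cells and -2.05 against -1.48 in stromal-like cells.

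Members did not move by the same amount. For each gene the member median of the class was subtracted from its log2 ratio, and the remainder is called its departure. By construction about as many members lie above the median as below it in any 1 class. Of 62 members measured in all 9 classes, 26 lay below the member median in all 9 and 23 lay above it in all 9. The median member's departure ranged over 0.46 on the log2 scale from its lowest to its highest class. The 9 comparisons use the same 2 libraries, with whatever free RNA each holds, so they are not independent. No member departed by 1 log2 unit or more in all 9 classes, although RPL22 and RPSA did in 8 of 9.

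**Figure D2:**
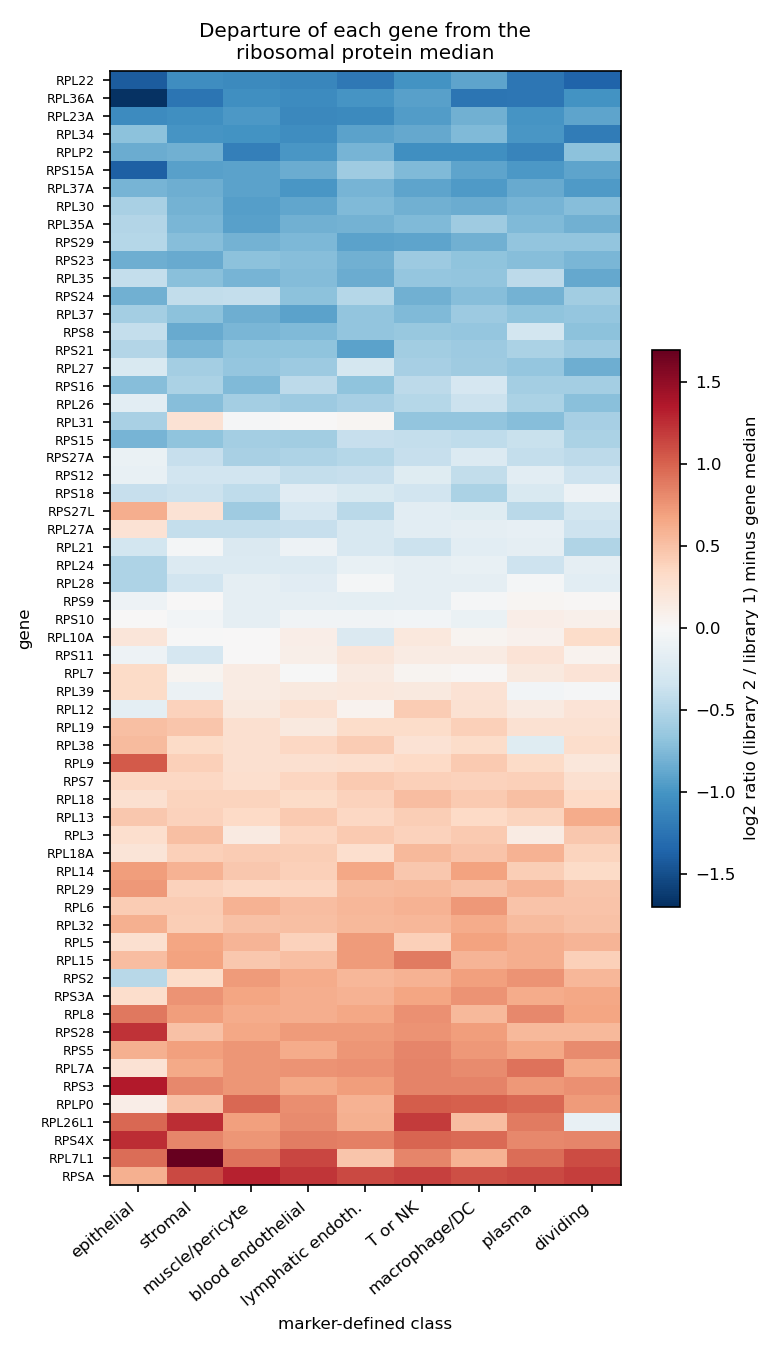
Departure of 62 ribosomal protein genes (vertical axis, ordered by their median) in 9 marker-defined classes (horizontal axis), as the log2 ratio of library 2 over library 1 minus the gene median of the class. RPL22 and RPL36A at the top are blue in every class, RPSA at the bottom is red in every class, and the epithelial column differs most from its neighbours, as for RPS2 and RPS27L.

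RPL36A (ENSSSCG00025048092), a large subunit protein near the site where spent transfer RNA leaves, was the lowest member in 4 classes. In library 1 its level was 2044 CPM in epithelial-like, 1268 in stromal-like, 883 in muscle or pericyte-like, 756 in blood endothelial-like, 735 in lymphatic endothelial-like, 1120 in T or NK cell-like, 855 in macrophage-like, 422 in plasma cell-like and 748 in dividing cells. The same classes of library 2 had 153, 158, 218, 153, 173, 312, 190, 102 and 178 CPM. The highest class of library 2 was thus below the lowest class of library 1. This held for 17 of 62 members, a count that was not made over all genes. RPL23A and RPLP2 were further apart by this measure than RPL36A. The log2 ratio ran from -3.74 (-3.80 to -3.68) in epithelial-like cells, a 13.4-fold difference, to -1.84 (-2.01 to -1.67) in T or NK cell-like cells, a 3.58-fold difference. RPL36A departed by -1 or lower in 7 of 9 classes and by -1.68 in epithelial-like cells. The related gene RPL36AL, whose symbol is outside the rule, was far scarcer, at 9.95 and 0.558 CPM in epithelial-like cells.

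RPL22 (ENSSSCG00025036285), a large subunit protein known for its role in T cell development, had 3143 CPM in epithelial-like, 1427 in stromal-like and 582 in plasma cell-like cells of library 1, the last being its lowest class there. Library 2 had 284, 203 and 141 CPM in the same classes, and its highest class was T or NK cell-like cells at 436 CPM. No class of library 2 reached the lowest class of library 1, as for RPL36A. The departure of RPL22 lay between -1.41, in epithelial-like cells, and -0.89, in macrophage-like cells, and was -1.21 in lymphatic endothelial-like and -1.36 in dividing cells.

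RPL23A, RPL34, RPL37A, RPS15A and the stalk protein gene RPLP2 lay next to them. RPL23A, a protein at the exit of the peptide tunnel, had 694 and 79.5 CPM in epithelial-like cells and 446 and 122 CPM in T or NK cell-like cells, and departed by -1.09 to -0.81 over the classes. RPL34 had 3900 and 577 CPM in epithelial-like and 1844 and 388 CPM in dividing cells, where its departure was -1.19. RPS15A of the small subunit had 5251 and 481 CPM in epithelial-like cells, a departure of -1.39, and lay between -0.98 and -0.61 in the other classes. RPL37A, with a departure between -0.98 and -0.79, was the most even of these genes.

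The ribosomal stalk, the arm of the large subunit that calls in elongation factors, had its measured parts on opposite sides. RPLP0, the base of the stalk, and RPLP2, which binds to it, differ in their departures in every class. RPLP2 had 1712 and 228 CPM in epithelial-like cells and 794 and 181 CPM in muscle or pericyte-like cells, with log2 ratios of -2.91 (-2.96 to -2.85) and -2.13 (-2.23 to -2.04). RPLP0 had 6884 and 1787 CPM in epithelial-like cells, 3030 and 3047 CPM in muscle or pericyte-like cells and 4205 and 4517 CPM in T or NK cell-like cells. The departure of RPLP0 was between 0.11, in epithelial-like cells, and 1.03, in T or NK cell-like cells, whereas that of RPLP2 was between -1.16 and -0.70. RPLP1, the remaining stalk protein, was not analysed here.

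RPSA (ENSSSCG00025041954), a small subunit protein also known as a laminin receptor, stood at the other end. In library 1 it had 3566.5 CPM in epithelial-like, 2285 in stromal-like, 1469 in muscle or pericyte-like, 1578 in blood endothelial-like, 1485 in lymphatic endothelial-like, 2214 in T or NK cell-like, 1714 in macrophage-like, 1020 in plasma cell-like and 1442 in dividing cells. Library 2 had 1300.05, 1471, 1858, 1546, 1519, 2608, 1918, 1253 and 1564 CPM. The 2 libraries overlapped. The log2 ratio was -1.46 (-1.49 to -1.42) in epithelial-like and -0.64 (-0.67 to -0.61) in stromal-like cells, and between -0.03 and 0.34 in the other 7 classes. Its departure was 0.60 in epithelial-like cells and between 1.09 and 1.31 in the other 8 classes. As a part of all ribosomal protein UMIs RPSA was 1.33% in library 1 and 2.50% in library 2, which took it from rank 37 to rank 14.

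Of 561 measured pairs of member and class, 18 had a log2 ratio above 0, and these belonged to 7 genes: RPSA, RPLP0, RPS4X, RPL7A, RPL7L1, RPL26L1 and RPL3L. Pairs above 0 were not counted over all genes, whose class medians lay between -0.21 and 0.27. In 9 pairs, all of RPSA, RPLP0 or RPL7A, the counting interval lay above 0. The largest was RPSA in muscle or pericyte-like cells, at 0.34 (0.30 to 0.38). These signs depend in part on the scaling: 6 of the 9 stayed above 0 both with TMM scaling and with levels set against the other genes, 5 of them RPSA and the remaining pair RPLP0 in macrophage-like cells. RPLP0 in T or NK cell-like cells, at 0.10, was -0.01 with TMM and -0.02 against the other genes. RPLP0 and RPL7A in plasma cell-like cells, at 0.15 and 0.09, were -0.10 and -0.15 with TMM and 0.11 and 0.06 against the other genes. RPS4X, the X-linked small subunit gene, was near equal in T or NK cell-like (2076 and 2183 CPM), macrophage-like (1657 and 1697 CPM) and plasma cell-like cells (966 and 964 CPM), where each interval included 0.

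**Figure D3:**
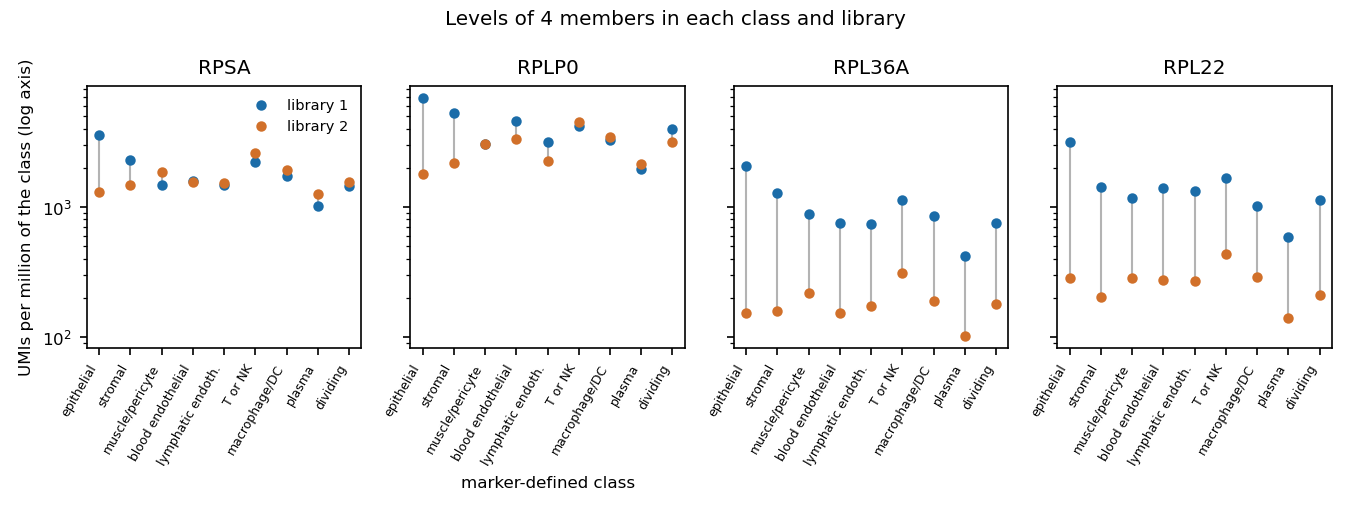
CPM of the class on a log axis for RPSA, RPLP0, RPL36A and RPL22 in 9 marker-defined classes, with library 1 in blue, library 2 in orange and a grey line joining the pair; each point is 1 sum over the cells of a class in 1 library. RPL36A and RPL22 lie lower in library 2 in every class, whereas the RPSA pairs lie close together outside epithelial-like and stromal-like cells.

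By total UMIs the leading members were RPS2, RPS3A, RPLP0, RPL7A and RPS7, which together took 16.3% of ribosomal protein UMIs in library 1 and 20.6% in library 2. RPS2, a protein at the entry of the messenger channel, was 3.78% of the member total in library 1 and 4.04% in library 2. RPS3A was 3.05% and 4.43% and led library 2, and RPLP0 was 3.13% and 4.17%. RPL7A was 3.06% and 4.18%, and RPS7 was 3.25% and 3.82%. All 5 therefore took a larger part of the member total in library 2 when all kept cells were summed. Within epithelial-like cells RPS2 took a smaller part there, 4.77% and 3.17%, and RPLP0 was near level at 3.10% and 3.08%. RPS3A, RPL7A and RPS7 took a larger part in that class too. The CPM of all 5 were lower in library 2 in epithelial-like and stromal-like cells, but RPLP0 and RPL7A had classes with a log2 ratio above 0. RPS3A had 8679 and 2572 CPM in epithelial-like and 5751 and 4844 CPM in T or NK cell-like cells, and RPS7 had 6896 and 2117 and 5938 and 4165 CPM in these classes. RPS12, singled out after its values were seen, led library 1 with 3.80% and was at rank 12 in library 2 with 2.85%. RPL39, a very small protein in the wall of the exit tunnel, stayed near the median, at 1.08% and 1.12% of the member total and with departures between -0.10 and 0.32.

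Epithelial-like cells had the widest differences from the other classes in the pattern of departures. For 10 members the departure in epithelial-like cells was at least 0.5 log2 units away from the median of the other 8 classes, against 4 members in stromal-like cells and 0 or 1 in the others. Epithelial-like cells stood higher for RPS27L, RPL27A, RPL9, RPS28 and RPS3, and lower for RPS2, RPLP0, RPL36A, RPL7A and RPSA. RPL27A, RPL9 and others of these were named after their values were seen. RPS27L departed by 0.62 in epithelial-like cells against -0.61 to 0.25 elsewhere. With cells weighted equally, its highest departure in any class was 0.27, so its size depends on how cells were weighted. RPS2 had 10596 and 1838 CPM in epithelial-like cells, a departure of -0.47, where the other classes had 0.31 to 0.77. RPS3, a protein of the messenger entry channel, had 2559 and 1564 CPM, a departure of 1.35 against 0.65 to 0.84 elsewhere. RPL9, at 5890 and 2920 CPM, departed by 1.05 against 0.19 to 0.44 elsewhere. RPS28, at 1605 and 901 CPM, departed by 1.23 against 0.49 to 0.77. RPS4X also had its highest departure there, 1.26, but 0.44 when 1 cluster per library stood for the class, so it rests on which epithelial clusters were taken. The 231 epithelial-like cells of library 1 include its ciliated cells, the clusters differ between libraries, and the part of this in the result was not tested.

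**Figure D4:**
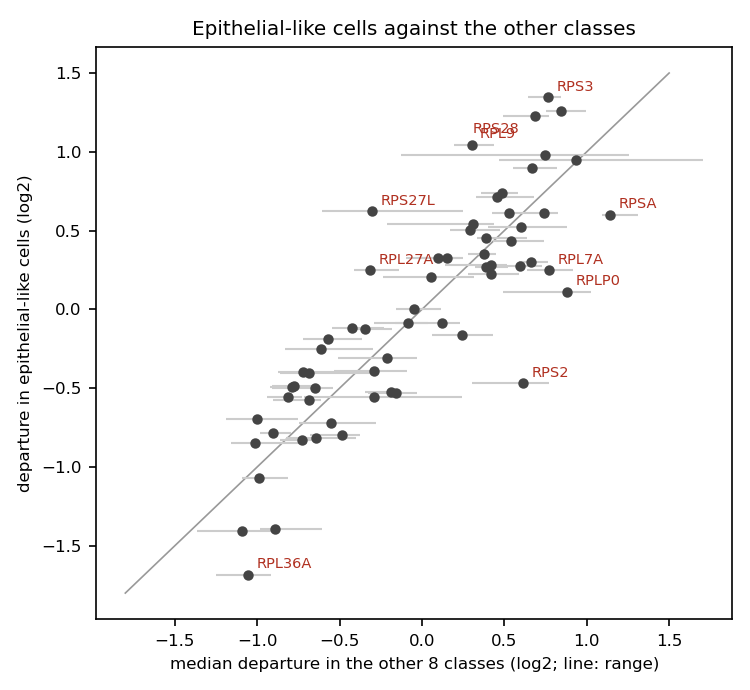
Departure in epithelial-like cells (vertical axis, log2) against the median departure in the other 8 classes (horizontal axis, log2; grey bars span those classes) for 62 ribosomal protein genes, with the line of equality. Named genes lie at least 0.5 log2 units from the line: RPS3, RPS28, RPL9, RPS27L and RPL27A above it, and RPS2, RPLP0, RPL7A, RPSA and RPL36A below it.

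Between classes of the same library the mix of ribosomal protein messengers was narrow. Each member was taken as a percent of all ribosomal protein UMIs of its class, and the highest class was a median of 1.44-fold above the lowest in library 1 and 1.55-fold in library 2, over 62 members. The fold was under 2 for 58 and 56 of the 62. A member was called different in a class when it was at least 1.5-fold away from the median of the other classes, the same way in both libraries. This was met by 4 of 558 pairs of member and class, or 0.717%, against 31.4% of all pairs of gene and class by the same rule. Members make up the denominator used here, which by construction holds their values together. All other genes were divided by the same ribosomal protein total. Class differences in the ribosomal protein share can therefore move other genes past the limit, and the 0.717% and 31.4% are not on an equal footing.

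RPS27L (ENSSSCG00025076977), a paralog of RPS27 that p53 is known to induce, gave 2 of the 4 pairs. In plasma cell-like cells it was 0.290% of ribosomal protein UMIs in library 1 (0.251 to 0.333%) and 0.185% in library 2 (0.148 to 0.229%), 2.40-fold and 1.71-fold above the other classes. In T or NK cell-like cells it was 0.0762% (0.0613 to 0.0935%) and 0.0603% (0.0486 to 0.0741%), 0.586 and 0.522 of the median of the others. After thinning to 1000 UMIs the plasma cell-like pair was no longer past the limit, and with called doublets kept the T or NK cell-like pair was not. These were the highest and the lowest class for RPS27L in both libraries, 3.81-fold and 3.07-fold apart. Its CPM were 186 and 76.6 in plasma cell-like cells and 130 and 60.5 in T or NK cell-like cells, so the plasma cell-like value is high for a class with few ribosomal protein UMIs and not the highest CPM. Epithelial-like cells had the most, at 266.5 and 98.6 CPM.

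RPL7L1 (ENSSSCG00025045173), a paralog of RPL7 known from ribosome assembly, was 0.132% of ribosomal protein UMIs in dividing cells of library 1 (0.112 to 0.155%) and 0.265% in library 2 (0.219 to 0.318%), 1.54-fold and 1.80-fold above the other classes, but it was not past the limit with cells weighted equally. T or NK cell-like cells had the lowest part in both libraries, 0.0603% and 0.0968%, and were past the limit in 5 of the alternatives. In CPM RPL7L1 was almost level between libraries in most classes, for example 95.8 and 92.2 in stromal-like cells, 97.4 and 94.0 in muscle or pericyte-like cells and 157 and 163 in dividing cells. Epithelial-like cells, at 154 and 71.2 CPM, and lymphatic endothelial-like cells, at 175 and 113 CPM, had lower values in library 2, with log2 ratios of -1.11 (-1.26 to -0.96) and -0.62 (-1.19 to -0.09).

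RPS28, a small protein near the messenger exit, was 1.15% of ribosomal protein UMIs in lymphatic endothelial-like cells of library 1 (1.08 to 1.22%) and 1.74% in library 2 (1.57 to 1.92%). These were 1.53-fold and 1.52-fold above the other classes, just past the limit. With called doublets kept, libraries clustered separately, cells weighted equally or cells thinned, the pair was no longer past it. RPS28 was lowest in plasma cell-like cells of both libraries, at 0.635% and 0.814%.

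**Figure D5:**
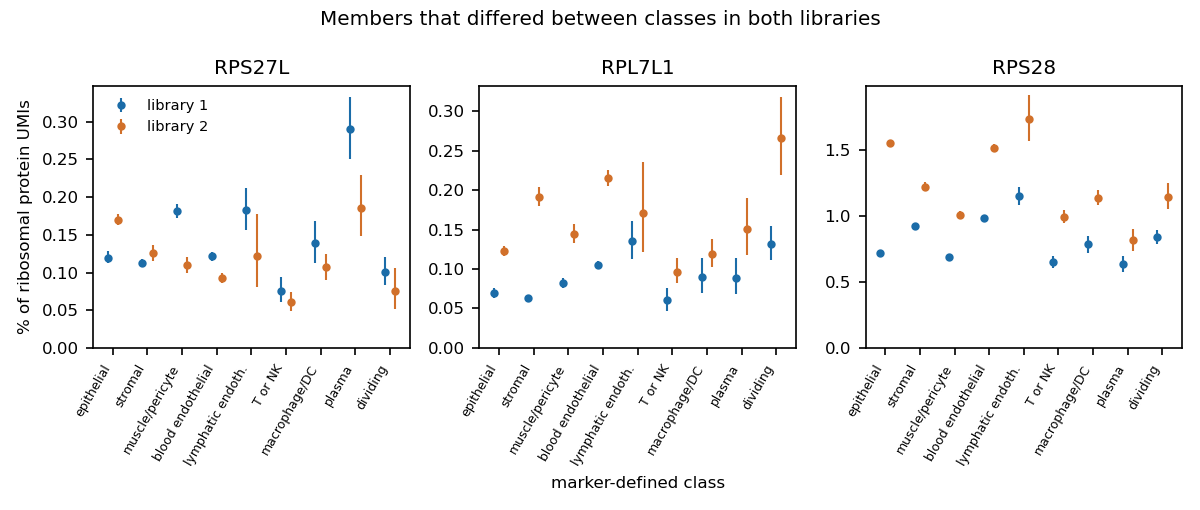
Percent of ribosomal protein UMIs taken by RPS27L, RPL7L1 and RPS28 in 9 marker-defined classes, library 1 in blue and library 2 in orange; bars are exact 95% binomial intervals, which cover counting error only. RPS27L is highest in plasma cell-like and lowest in T or NK cell-like cells in both libraries, and RPL7L1 in dividing cells is 0.132% and 0.265%.

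The other paralogs were rare. RPL26L1, a close paralog of RPL26, had 146 and 69.3 CPM in epithelial-like cells and 61.6 and 73.8 CPM in T or NK cell-like cells, with departures from -0.12 in dividing cells to 1.26 in stromal-like cells. RPL3L, the form of RPL3 known from heart and skeletal muscle, reached 10 UMIs in 3 classes. It had 12 and 12 UMIs in muscle or pericyte-like cells (1.69 and 2.09 CPM), 19 and 15 in stromal-like and 3 and 19 in epithelial-like cells, and every interval of its log2 ratio included 0. In lymphatic endothelial-like cells it had 0 UMIs in both libraries, which allows up to 4.26 and 8.96 CPM, so a level like that in muscle was not detectable there. In blood endothelial-like cells of library 2 it also had 0 UMIs, which allows up to 0.217 CPM, below the 2.09 CPM of muscle or pericyte-like cells.

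Lists of genes that work with ribosomes had median log2 ratios below 0 in 9 of 9 classes. Of 14 translation factors and related growth-controlled messengers with a symbol, 7 were at least 2-fold lower in epithelial-like cells and 6 in stromal-like cells, where 26.9% and 19.5% of all genes were. Their median log2 ratios were -1.03 and -0.93, beside -0.21 and 0.02 for all genes. EEF1A1, which brings transfer RNA to the ribosome, had 7267 and 1485 CPM in epithelial-like and 5707 and 1607 CPM in stromal-like cells. PABPC1, the poly(A) binding protein, went the other way, with 257 and 1059 CPM in macrophage-like cells and 201 and 473 CPM in T or NK cell-like cells. RACK1, a scaffold protein of the small subunit whose symbol is outside the rule, had 1636 and 469 CPM in epithelial-like cells and 554 and 435 CPM in plasma cell-like cells.

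Ribosome assembly genes had a median log2 ratio of -1.39 in epithelial-like cells, where 11 of 17 were at least 2-fold lower (26.9% of all genes), and between -0.59 and -0.23 in the other classes. NCL, or nucleolin, had 266.5 and 84.8 CPM in epithelial-like cells and 184 and 124 CPM in stromal-like cells. MYC went the other way, with 86.2 and 278 CPM in muscle or pericyte-like cells, where 1 of 17 was at least 2-fold higher. For the 60 mitochondrial ribosomal protein genes the median was -0.91 in epithelial-like cells, with 28 of 60 at least 2-fold lower (26.9% of all genes). In stromal-like cells the median was -0.50 and 4 of 60 were at least 2-fold lower, a smaller share than the 19.5% of all genes. MRPS21 was lower in library 2, with 150 and 33.6 CPM in epithelial-like cells, whereas MRPS34 was higher, with 18.0 and 61.5 CPM. Short respiratory chain and housekeeping genes had medians of -1.66 in epithelial-like and -1.28 in stromal-like cells, below those of the translation, assembly and mitochondrial ribosome lists, with 23 and 18 of 27 at least 2-fold lower (26.9% and 19.5% of all genes). COX7B, a subunit of cytochrome c oxidase, had 613 and 75.4 CPM in epithelial-like and 241 and 39.0 CPM in stromal-like cells. ATP5F1D went the other way, with 38.7 and 200 CPM in T or NK cell-like cells, where 1 of 27 was at least 2-fold higher. In muscle or pericyte-like, blood endothelial-like, lymphatic endothelial-like, T or NK cell-like, macrophage-like, plasma cell-like and dividing cells the median of this list, -0.95 to -1.43, was below that of the ribosomal protein genes.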

How the data were processed

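Digested tissue was run through 10x droplets, per the labels' protocols. Each deposited matrix lists UMI counts, unscaled, for every gene in every barcode. Its header records Cell Ranger 6.1.0, per the file headers, but 2.1.1 stands in the submitters' processing notes. Neither the genome build nor the counting of intron reads is given in the sources used here. Limits of 500 UMIs and 200 genes removed 5 and 1 barcodes, and Scrublet (scanpy 1.11.5) removed 1112 (11.1%) and 2423 (16.1%) doublets. No mitochondrial limit was set, because 0 such symbols were present.

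Cells of both libraries were clustered together (2000 variable genes without ribosomal protein genes, 30 components, 15 neighbours, Leiden resolution 1.0, igraph 0.11.9, no integration). Clusters were named from marker lists, of which 117 of 185 entries had a symbol, by the mean log2 fold against other cells (pseudocount 20 CPM, at least 3 markers, mean at least 0.5, margin 0.25), and 27 of 30 were named. Members, markers and lists were chosen with earlier results of these data known.

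UMIs were summed per class and library. Ratios used genes with at least 10 UMIs in the class, with counts under 3 set to 3, and have exact conditional binomial intervals. Shares have exact Clopper-Pearson intervals. Named genes were the 5 largest members, up to 3 departures each way per class, members different between classes, a fixed set of paralogs and stalk genes, and the members at the UMI limit. List examples were the 3 largest ratios per class. Counts were simulated for 15482 genes in epithelial-like and 16411 in stromal-like cells. Of these, 9872 and 13277 had 20 or more expected UMIs. Among the latter, 100% and 99% of the genes given a log2 change of 1.5 were recovered as 2-fold calls. The interval covered the simulated ratio in 95.6% and 95.8%. These rates rest on genes with 20 or more expected UMIs, so they do not cover genes near the limit of 10 UMIs. The alternatives tried were limits of 1000 UMIs and 500 genes, no doublet removal, ribosomal protein genes allowed in clustering, resolutions 0.5 and 2.0, separate clustering, TMM (edgeR 4.0.16), scaling to other genes, cells weighted equally, thinning to 1000 UMIs, member limits of 1000 UMIs or none, and, added after seeing the data, 1 cluster per class and library. When ribosomal protein genes were allowed, 0 of them were among the variable genes. That alternative therefore could not show what leaving them out did to the classes.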

Additional observations from a re-analysis of the deposited data

Results flagged for a closer look

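In 3 members the counting intervals of 2 classes lay on opposite sides of an equal level, with 1 library on each side of the ratio, and the difference between the classes was not tested. RPSA, a small subunit protein, had a log2 ratio of library 2 over library 1 of 0.34 in muscle or pericyte-like cells and -1.46 in epithelial-like cells. RPLP0, the base of the ribosomal stalk, had 0.15 in plasma cell-like cells and -1.95 in epithelial-like cells. RPL7A, a large subunit protein, had 0.09 in plasma cell-like cells and -1.81 in epithelial-like cells. With TMM scaling the plasma cell-like values of RPLP0 and RPL7A were -0.10 and -0.15, below 0 as in epithelial-like cells, but with levels set against the other genes they were 0.11 and 0.06. RPLP0 in macrophage-like cells, at 0.08, was 0.15 with TMM and 0.01 against the other genes. RPSA in muscle or pericyte-like cells was 0.39 and 0.26.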

How the results depend on the processing

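Over 13 alternatives the number of members at least 2-fold lower in library 2 was 55 to 61 in epithelial-like, 52 to 59 in stromal-like, 34 to 41 in blood endothelial-like, 30 to 33 in muscle or pericyte-like and 22 to 33 in plasma cell-like cells, each within 1.5 times the reported count, and 0 were at least 2-fold higher. The member shares of libraries 1 and 2 were 14.5% and 5.80% with the stricter cell filter, 14.4% and 5.73% with doublets kept, 13.5% and 5.44% with cells weighted equally and 13.7% and 5.57% after thinning. Departure of at least 1 in all 9 classes was met by 1 member with doublets kept (RPL36A) and by 1 with cells weighted equally (RPL22), against 0; the cause was not tested. RPS27L in plasma cell-like cells was not past its limit after thinning, RPS27L in T or NK cell-like cells with doublets kept, and RPL7L1 in dividing cells with cells weighted equally. Other pairs passed it: RPL7L1 in T or NK cell-like cells at resolutions 0.5 and 2.0, with separate clustering, thinning or 1 cluster per class, RPL31 in epithelial-like cells with separate clustering or equal weights, RPS10 in plasma cell-like cells with equal weights or thinning, RPL31 in plasma cell-like cells with equal weights, RPS4X in epithelial-like cells after thinning and RPL3L in 3 classes with doublets kept. Among 695 recomputed departures of named members, 633 moved by less than their counting interval, 62 moved by more and 0 changed sign. The 695 include TMM scaling, scaling to other genes and no member limit, where departures could not move. Both scalings shift all members of a class alike, and the missing limit adds only RPL10L, with 0 UMIs. TMM scaling shifted log2 ratios by 0.17 in epithelial-like, 0.11 in blood endothelial-like, -0.11 in T or NK cell-like and -0.24 in plasma cell-like cells. No paired analysis was possible because each group has 1 library, and for the same reason no replicate could be left out. Depth limits RPL3L and, in small classes, RPL31 and RPL26L1.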

Other observations

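RPL31, a large subunit protein singled out after its values were seen, was lower in library 2 in all 9 classes but not evenly so. Its departure from the member median was 0.24 in stromal-like, -0.02 in muscle or pericyte-like, 0.00 in blood endothelial-like and 0.03 in lymphatic endothelial-like cells. In T or NK cell-like, macrophage-like, plasma cell-like, dividing and epithelial-like cells it was -0.67, -0.67, -0.72, -0.56 and -0.55. The plasma cell-like value rests on 50 and 18 UMIs.

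Cluster 17, with 1413 cells of library 2, 0 of library 1 and a median of 1099 UMIs, stayed unnamed and had the lowest ribosomal protein share of the clusters of library 2, at 2.57%. PAX8, a transcription factor of the female tract epithelium, was among its 10 leading genes. Within library 2 the blood endothelial-like cluster 24, led by ACKR1, had 7.31% and clusters 25 and 26 had 5.59% and 5.68%. In library 1 cluster 2, with both ACKR1 and PLVAP among its leading genes, had 14.7% and cluster 12, with CLDN5 and GJA5, had 11.7%. Cluster 2 thus mixes cells that lie apart in library 2. With library 1 clustered separately, blood endothelial-like clusters with ACKR1 among their leading genes had 16.0% and 15.0%, and the cluster led by PLVAP had 13.4%. Clusters with ACKR1 had the higher share in both libraries, with no test.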
